A study of Mus musculus with 25 samples.

Results

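The miR-34 and miR-449 precursors form a small family of hairpins that carry a common seed and are known from multiciliated cells. They were taken by name from the deposited count table, as mmu-mir-34a, mmu-mir-34b, mmu-mir-34c, mmu-mir-449a and mmu-mir-449c (written below without mmu), which makes 5 of 1193 precursors. All 5 passed the filter on low counts, among 425 precursors tested. The table holds 25 small RNA libraries, 1 per animal, made from total RNA of a brain hemisphere. The mice were C57BL/6 males of 2, 9, 15, 24 or 30 months, with 5 libraries per age. C57BL/6 is a common inbred laboratory strain, and the labels give neither a treatment nor an engineered allele. A hemisphere holds many cell types, including the ciliated ependymal cells that line the ventricles and the choroid plexus that makes cerebrospinal fluid. In such bulk tissue, a change in the number of cells of a type and a change in RNA per cell cannot be told apart.

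A miRNA is cut from a hairpin precursor, and bases 2 to 8 of the mature strand, the seed, pair with target mRNAs. The miR-34b/c and miR-449 hairpins are induced when epithelial cells become multiciliated, and mice that lack both clusters have sparse motile cilia and are infertile. Among their known targets are Ccp110, an inhibitor of cilium assembly, and members of the Notch pathway. miR-34a is expressed in many tissues and is a direct target of the tumour suppressor p53, which also binds near the mir-34b/c cluster.

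The mature sequences are shown because the shared seed is what defines the family. They were taken from RefSeq (GRCm38.p6), where the names of all 5 members matched, and are written 5′ to 3′ with the seed in capitals.
mmu-miR-34a-5p: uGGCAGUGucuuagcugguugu
mmu-miR-34b-5p: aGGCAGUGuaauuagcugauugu
mmu-miR-449a-5p: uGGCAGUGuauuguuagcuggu
mmu-miR-449c-5p: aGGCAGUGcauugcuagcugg
mmu-miR-34b-3p: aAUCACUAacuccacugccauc
mmu-miR-34c-3p: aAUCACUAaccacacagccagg
The 4 5p strands shown have an identical seed. mmu-miR-34c-5p is not shown and was not searched for its seed here. The site that pairs with the seed is CACUGCC. The 3p strands of mir-34b and mir-34c share a second seed, AUCACUA, carried by only these 2 of the 1679 mature names in the RefSeq table used. Outside the seed the 5p sequences shown differ. mmu-miR-34c-5p was not compared with them, so its likeness to mmu-miR-34b-5p was not examined. Whether mir-34b and mir-34c share reads in the counts was not tested. mir-449a-5p and mir-449c-5p, aligned at their first base, have the same base at 18 of 21 positions, and mir-34a-5p and mir-449a-5p at 15 of 22. The longest run of bases that any pair of the 5 hairpins shares is 11. Both arms of a hairpin were counted together, so the arms cannot be told apart in these values.

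The hairpins lie at 3 loci (coordinates of GENCODE M21, GRCm38, 1-based). mir-34a lies on chromosome 4 from 150068454 to 150068555 on the plus strand. mir-34c lies on chromosome 9 from 51103034 to 51103110 and mir-34b from 51103562 to 51103645, both on the minus strand, with 451 bases between them. This pair is inside intron 1 of Btg4, which runs on the opposite strand, and is known to come from a common transcript. mir-449c lies on chromosome 13 from 113035983 to 113036091 and mir-449a from 113037534 to 113037624, both on the plus strand with 1442 bases between them. Both are in intron 2 of Cdc20b, a gene of the multiciliated-cell programme, on the same strand. A further hairpin of this intron, mir-449b, ends 35 bases before mir-449a. It had 1 read in 2 of the 25 libraries and none in the other 23, where a count of 0 allows a level of up to 0.315 to 0.774 CPM depending on depth (3 reads of the library total, counting error only).

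**Figure D1:**
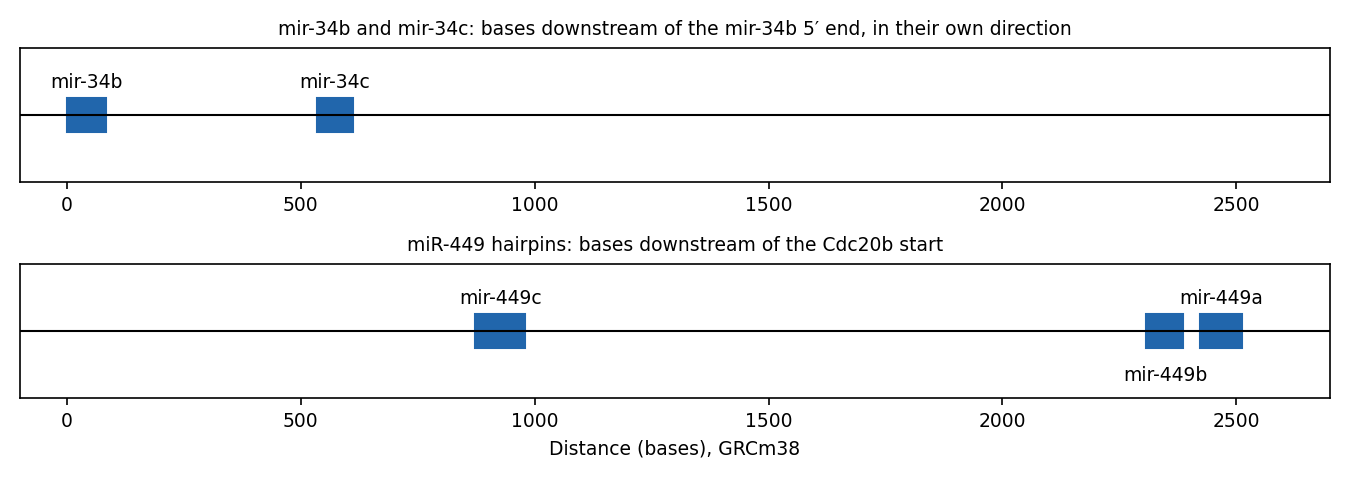
Positions of the clustered hairpins. The horizontal axis gives the distance in bases, to scale; blue boxes are hairpins. The upper line runs in the direction of mir-34b and mir-34c from the 5′ end of mir-34b, and the lower line from the start of Cdc20b; mir-34b and mir-34c are 451 bases apart, and mir-449c and mir-449a 1442.

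Levels are given in CPM, reads relative to the library total after correction by TMM, edgeR's trimmed-mean factors. Library totals lay between 3.78 and 9.52 M reads. The libraries were run in 6 sequencing lanes, named in the column headers, and each age had 1 library in lane 3. The lane 3 libraries stood apart on principal component 2 (19.9% of the variance of log2 CPM), where their split from the rest made up 79.2% and age 10.5%. The neuronal hairpins of miR-124, miR-9 and miR-128 summed to 62080 to 79793 CPM at 30 months and 69180 to 79741 CPM at 2 months. The copies of miR-9 averaged 11453.8, 11460.5 and 11439.4 CPM, and those of miR-124 2652, 2646 and 2649 CPM. Such near-equal copies can share reads, so the sum may count reads more than once. The liver miR-122 did not exceed 5.99 CPM in any library.

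Most reads of the family came from mir-34c, with 83.1% of them over the 25 libraries. It averaged 2207 CPM, followed by mir-34a with 259 CPM and mir-34b with 173 CPM. mir-449a averaged 15.3 CPM and mir-449c 3.77 CPM. These levels compare reads, not molecules, since adapters are ligated to different small RNAs with different efficiency. The summed level of the 5 hairpins was 2653 to 2978 CPM at 30 months, against 2038 to 2602 CPM at 2 months. The ranges did not overlap, which was also true of 21.4% of all tested precursors, and of 10.4% with 30 months higher. Those shares are of single precursors, not of sums.

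Between 2 and 30 months, mir-449a, mir-449c and mir-34c rose, and mir-34a and mir-34b did not pass the test. The calls come from edgeR's quasi-likelihood test with Benjamini-Hochberg adjustment over all 425 precursors, at a threshold of 0.05. The share of all tested precursors called in this comparison was 36.9%, and 19.1% were called as higher and 17.9% as lower. The 3 of 5 members have to be read against that share. The median log2 fold change of the 5 members was 0.27, against 0.05 over the 425 precursors. Upper-quartile scaling turned the 81 higher and 76 lower precursors of the comparison into 50 and 91.

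mir-449a, the more abundant hairpin of the Cdc20b intron, had the largest estimated fold change of the 5 members. At 2 months the 5 libraries held 10.5, 15.0, 13.1, 7.32 and 11.6 CPM. At 9 months they held 12.7, 13.5, 11.1, 16.8 and 18.8 CPM, and at 15 months 17.3, 14.5, 13.9, 14.9 and 15.6 CPM. At 24 months they held 14.9, 12.1, 21.7, 14.5 and 18.4 CPM, and at 30 months 17.9, 19.03, 20.8, 17.5 and 19.3 CPM. Every library of 30 months lay above every library of 2 months, while the 24-month libraries spread over most of the range of the other ages. Libraries of 10.4% of all tested precursors were likewise all higher at 30 than at 2 months.

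The mean of mir-449a was 18.9 ± 1.29 CPM at 30 months and 11.5 ± 2.89 CPM at 2 months (SD, n = 5 each). The log2 fold change was 0.72 ± 0.17 (SE, 95% interval 0.38 to 1.06, edgeR adjusted p = 0.00153), or 1.64-fold. The call held in each of 25 refits that left out 1 library (0.58 to 0.79) and under each of 11 other settings (0.65 to 0.80). Within the 4 lanes that held both ages, the difference in log2(CPM + 0.5) was 0.84 in lane 3, 0.43 in lane 5, 1.32 in lane 6 and 0.82 in lane 7. Read numbers were modest, from 74 to 182 at 30 months and from 41 to 74 at 2 months.

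mir-449c, its lower neighbour, was measured with few reads. It had 18, 21, 27, 28 and 30 reads in the 30-month libraries, against 7, 15, 15, 22 and 17 in the 2-month libraries. These correspond to 4.35, 4.16, 5.01, 5.17 and 3.18 CPM at 30 months, against 1.296, 3.04, 2.99, 3.93 and 2.85 CPM at 2 months. The ages overlapped, and 2-month replicate 1, of lane 3, was the lowest of all 25 libraries. Counting error alone gives a coefficient of variation of 20.1% at 30 months and 25.6% at 2 months at these read numbers, against observed values of 18.1% and 33.8%.

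The mean of mir-449c was 4.37 ± 0.793 CPM at 30 months and 2.82 ± 0.953 CPM at 2 months (SD, n = 5 each), a log2 fold change of 0.61 ± 0.21 (SE, edgeR adjusted p = 0.0250). This call was fragile. Leaving out 2-month replicate 1 took it to 0.38 (adjusted p = 0.191). It also failed to pass on removal of 30-month replicate 1 (0.56), 2 (0.58), 3 (0.51) or 4 (0.53), or of 2-month replicate 2 (0.59) or 3 (0.59). The same happened without lane 3 (0.51, adjusted p = 0.0558). Of the 11 other settings, 10 gave a value for mir-449c and 6 of them lost the call. Within lanes the log2 difference was 1.03 in lane 3, 0.48 in lane 5, 0.07 in lane 6 and 0.72 in lane 7.

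mir-34c, the dominant hairpin of the family, had a smaller estimated fold change than either miR-449 hairpin. At 2 months the libraries held 1810.3, 2220.2, 2029.9, 2129 and 1637 CPM, and at 9 months 1769.6, 2219, 2078, 2259.5 and 2156 CPM. At 15 months they held 2146, 2239, 1871, 2237 and 2059 CPM. At 24 months they held 2189, 2811, 2497, 2210.03 and 2741 CPM, and at 30 months 2282, 2486, 2534, 2362 and 2192 CPM. Of the 30-month libraries 4 of 5 lay above all 2-month libraries, and the highest levels of the series were in 24-month replicates 2 and 5.

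The mean of mir-34c was 2371 ± 141 CPM at 30 months and 1965 ± 239 CPM at 2 months (SD, n = 5 each), a log2 fold change of 0.27 ± 0.08 (SE, 95% interval 0.10 to 0.45, edgeR adjusted p = 0.0152). It did not pass on removal of 30-month replicate 1 (0.24), 2 (0.22) or 3 (0.21), nor of 2-month replicate 1 (0.20), 3 (0.25) or 5 (0.21), with adjusted p between 0.0509 and 0.0970. The call held without lane 3. Within lanes the log2 difference was 0.28, 0.17, 0.22 and 0.63 in lanes 3, 5, 6 and 7. Upper-quartile scaling gave 0.21 (adjusted p = 0.0750).

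mir-34b, which shares the transcript of mir-34c, held 178, 175, 157, 172 and 166 CPM in the 30-month libraries, against 134, 164, 177, 183 and 139 CPM in the 2-month libraries. No 30-month library lay above all those of 2 months. The mean was 169.5 ± 8.31 CPM at 30 months and 159 ± 22.1 CPM at 2 months (SD, n = 5 each). The log2 fold change was 0.09 ± 0.09 (SE, 95% interval -0.09 to 0.28, edgeR adjusted p = 0.453), and it was -0.0081 without 2-month replicate 1. Within lanes 3, 5, 6 and 7 the log2 difference was 0.31, 0.01, -0.06 and 0.18.

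mir-34a, the p53-linked hairpin of the separate locus on chromosome 4, held 266, 293, 248, 231 and 273 CPM in the 30-month libraries, against 233, 199, 212, 255.8 and 248 CPM in the 2-month libraries. The ranges overlapped, with 3 of 5 libraries of 30 months above all those of 2 months. The mean was 262 ± 24.1 CPM at 30 months and 229.7 ± 23.8 CPM at 2 months (SD, n = 5 each). The log2 fold change was 0.19 ± 0.09 (SE, 95% interval 0.00403 to 0.38). It had an unadjusted p of 0.0456 in edgeR's quasi-likelihood test and did not pass after adjustment (adjusted p = 0.09997). Within lanes 3, 5, 6 and 7 the log2 difference was 0.23, 0.33, 0.20 and -0.00.

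**Figure D2:**
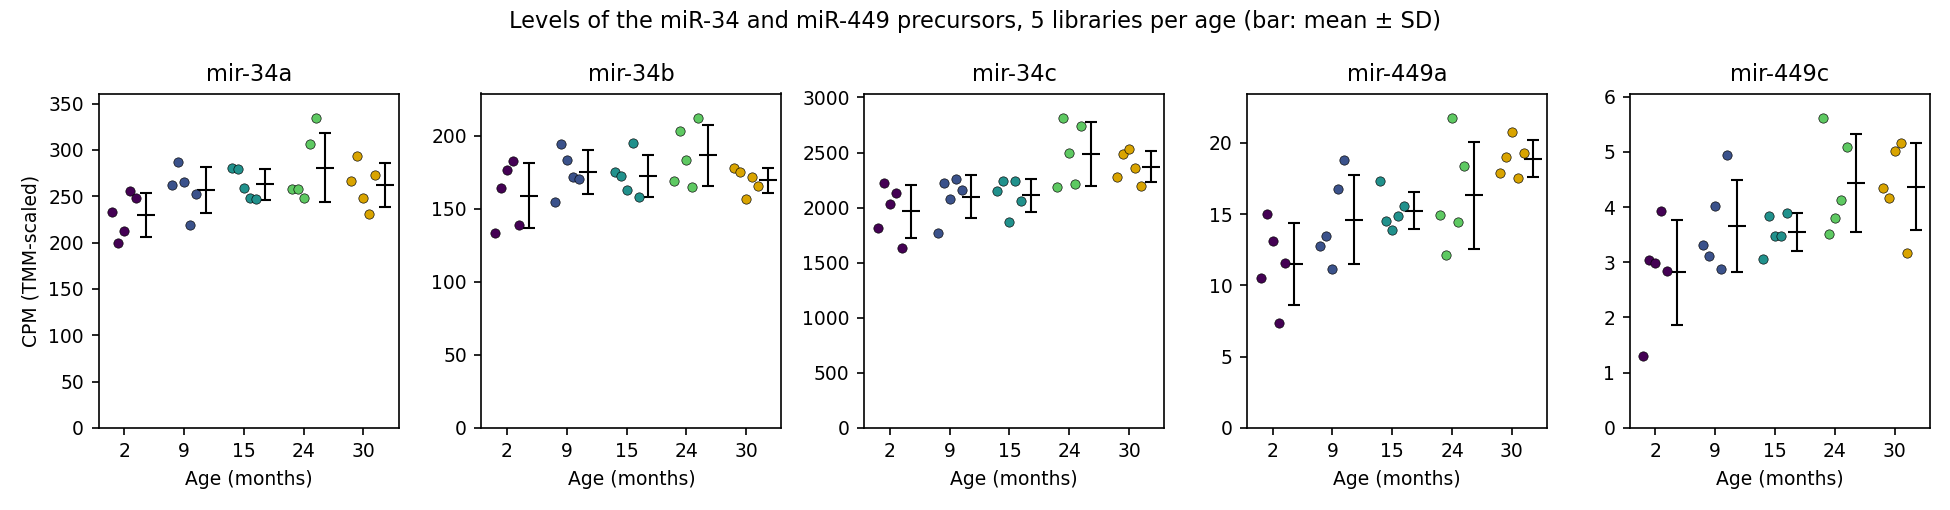
Level of each hairpin in CPM (vertical axes from 0) by age in months. Points are the 25 libraries, 5 per age, in order of replicate; the bar beside them is the mean ± SD. The mir-449a panel climbs over the ages, its 30-month points (17.5 to 20.8 CPM) all above the 2-month points (7.32 to 15.0 CPM), while mir-34a and mir-34b overlap between these ages.

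Over the whole age series, the same 3 members had a positive linear slope. Per 12 months, log2 CPM changed by 0.27 ± 0.06 for mir-449a (SE, edgeR adjusted p = 0.00120), 0.25 ± 0.08 for mir-449c (adjusted p = 0.0129) and 0.14 ± 0.03 for mir-34c (adjusted p = 0.00160). The slope of mir-34a was 0.09 ± 0.04 (adjusted p = 0.0570) and that of mir-34b 0.05 ± 0.04 (adjusted p = 0.311), which was 0.013 without 2-month replicate 1. Of all tested precursors 35.5% had a slope that passed, and 19.5% a positive one. Slopes of the 3 called members kept their call under all 7 other settings in which they were fitted. Without 2-month replicate 1 the slope of mir-449c was 0.18 and did not pass (adjusted p = 0.0826). Without 30-month replicate 4 the slope of mir-34a was 0.10 and passed (adjusted p = 0.0284).

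A test for any difference among the 5 ages called mir-34c (edgeR adjusted p = 0.0125) and mir-449a (adjusted p = 0.0184), with 32.7% of all precursors called. The other adjusted p-values were 0.0855 for mir-449c, 0.124 for mir-34a and 0.273 for mir-34b. The call of mir-449a was lost without lane 3 (adjusted p = 0.110). Removal of 30-month replicate 3 (adjusted p = 0.0594) or 5 (0.0507), or of 2-month replicate 1 (0.0596) or 4 (0.0511), ended it too. That of mir-34c was lost without 2-month replicate 1 (adjusted p = 0.0513) or 24-month replicate 2 (0.0789). mir-449c passed without 2-month replicate 4 (adjusted p = 0.0427) and with lane as a covariate (0.0357).

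No member departed from its straight line (0 of 5, edgeR adjusted p from 0.448 to 0.810; 0 at an unadjusted p under 0.05), where 7.06% of all precursors did. The order of the age means differed among members. mir-449a followed the ages from 11.5 CPM at 2 months through 14.6, 15.2 and 16.3 to 18.9 CPM at 30 months. For the other members the highest mean fell at 24 months, with 2490 ± 290 CPM for mir-34c, 281 ± 37.6 CPM for mir-34a, 187 ± 20.6 CPM for mir-34b and 4.43 ± 0.887 CPM for mir-449c (SD, n = 5). Between any 2 ages next to each other in a member's own order of means, the ranges of the libraries overlapped.

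None of the 5 members passed between adjacent ages, by edgeR or by DESeq2. For 9 against 2 months 7.76% of all precursors were called and the members' log2 fold changes lay between 0.09 for mir-34c and 0.38 for mir-449c (adjusted p from 0.233 to 0.556). For 15 against 9 months no precursor was called by edgeR and 2 by DESeq2, with 27 at an unadjusted p under 0.05 in edgeR, and the members lay between -0.05 and 0.06. For 24 against 15 months 0.235% were called, and mir-34c had the largest estimate relative to its error among the members, at 0.24 ± 0.08 (SE, unadjusted p = 0.00995, adjusted p = 0.235, edgeR). For 30 against 24 months 8.71% were called. There mir-449a lay at 0.21 ± 0.16 and the other 4 members between -0.14 and -0.04 (adjusted p from 0.395 to 0.968). Apart from that of mir-34c, no member reached an unadjusted p under 0.05 in any of the 4 adjacent comparisons.

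**Figure D3:**
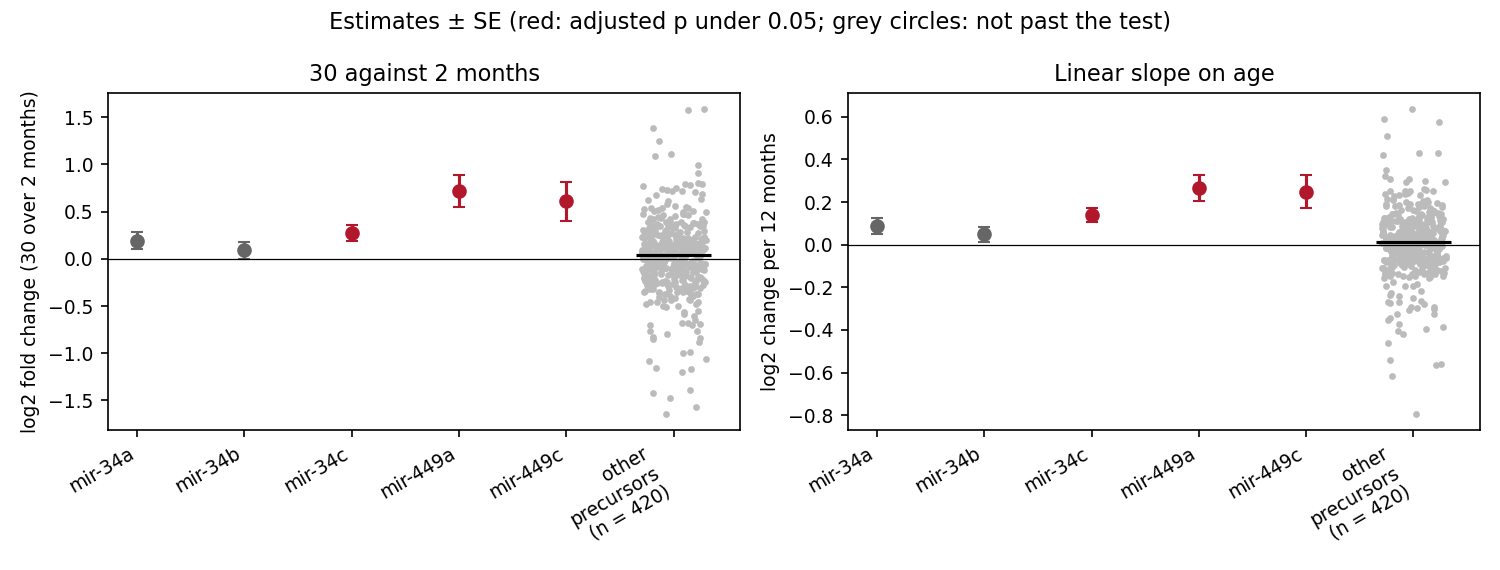
Left, log2 fold change of 30 over 2 months; right, log2 change per 12 months. Circles are edgeR estimates with SE bars, red where the adjusted p was under 0.05 and grey where it was not; the small dots are the other 420 tested precursors with a line at their median. mir-449a (0.72) and mir-449c (0.61) lie well above the median of the other precursors, and mir-34b (0.09) near it.

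Ratios between members within a library do not depend on how libraries are scaled, and they test whether a member changed more than another. mir-449a gained on both hairpins of chromosome 9. There were 0.784, 0.765, 0.821, 0.742 and 0.879 reads of mir-449a per 100 reads of mir-34c in the 30-month libraries, against 0.583, 0.676, 0.648, 0.344 and 0.707 in the 2-month libraries, so that the groups did not overlap. The log2 ratio was 0.47 higher at 30 than at 2 months (exact two-sided permutation p = 0.00794 over all assignments, the smallest this design allows; adjusted p = 0.0397 over the 10 pairs of members). Against mir-34b the log2 ratio of mir-449a was 0.65 higher, again with no overlap (exact permutation p = 0.00794, adjusted p = 0.0397). Per 100 reads of mir-34b there were 11.2 ± 1.301 reads of mir-449a at 30 months and 7.36 ± 1.97 at 2 months (SD, n = 5 each).

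2-month replicate 4, with 41 reads of mir-449a, weighed most in the gap. Without it the difference was 0.29 against mir-34c and 0.44 against mir-34b, and both still passed (adjusted p = 0.0397 each, exact permutation test). Without lane 3 the differences were 0.44 and 0.67 at the smallest p that 4 against 4 libraries can give (0.0286), and neither passed (adjusted p = 0.0952). With any single 30-month library left out, neither passed either (adjusted p from 0.0794 to 0.119, exact permutation test). The differences were then 0.43 to 0.49 against mir-34c and 0.58 to 0.68 against mir-34b. All 4 lanes that held both ages had a higher ratio at 30 months, by 0.58, 0.27, 1.14 and 0.21 against mir-34c in lanes 3, 5, 6 and 7. The ratios at 9, 15 and 24 months were not tested, and those of 24 months ran from 0.431 to 0.870 reads per 100 reads of mir-34c.

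The other 8 ratios did not pass. The log2 ratio of mir-449a to mir-34a was 0.55 higher at 30 months (exact permutation p = 0.0476, adjusted p = 0.119), and it passed without 2-month replicate 2 (0.71, adjusted p = 0.0265). Those of mir-449c to mir-34b, mir-34a and mir-34c were 0.57, 0.48 and 0.40 higher (adjusted p = 0.0794, 0.249 and 0.225, exact permutation test). Without 2-month replicate 1 these were 0.39, 0.23 and 0.18. The ratio of mir-449c to mir-449a differed by -0.07 and varied widely. There were 23.3 ± 4.70 reads of mir-449c per 100 reads of mir-449a at 30 months and 26.7 ± 15.8 at 2 months (SD, n = 5 each). mir-34b gave 7.18 ± 0.617 reads per 100 reads of mir-34c at 30 months and 8.11 ± 0.655 at 2 months (SD, n = 5 each). The log2 ratio of mir-34c to mir-34b was 0.18 higher at 30 months in the same test (exact permutation p = 0.0714, adjusted p = 0.143), with 5 of 5 libraries of 30 months above the 2-month mean.

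**Figure D4:**
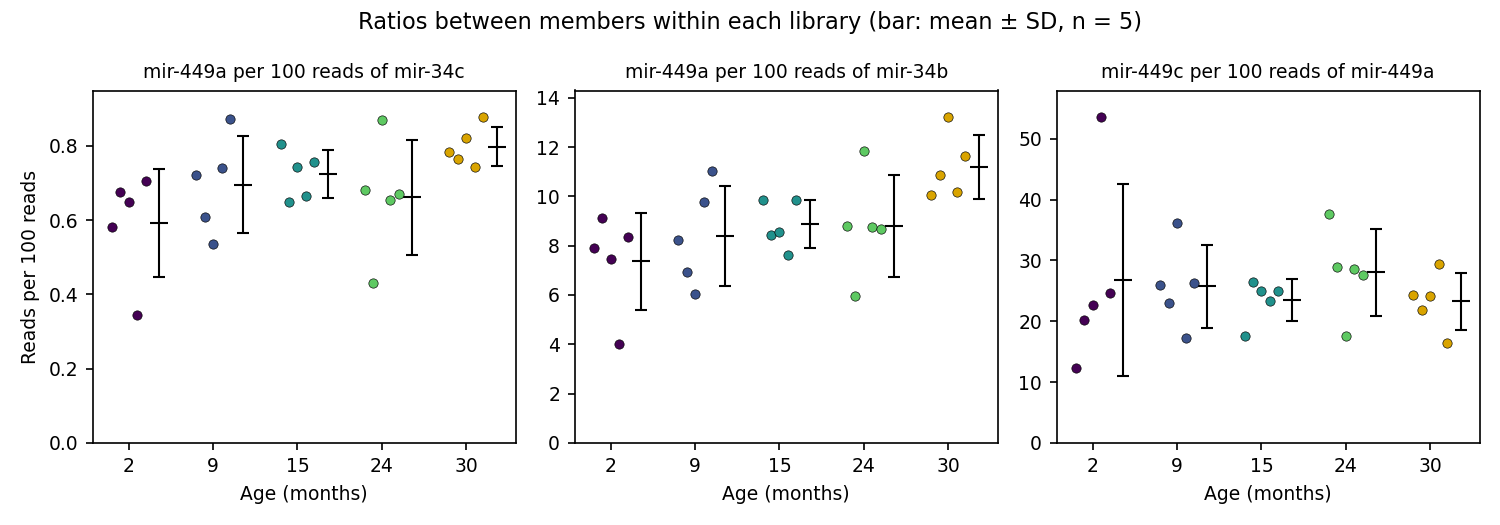
Reads of 1 member per 100 reads of another in each library (vertical axes from 0), by age in months; points are libraries and bars the mean ± SD (n = 5). In the panels of mir-449a against mir-34c and mir-34b the 30-month points lie above all 2-month points, and in the panel of mir-449c against mir-449a the ages overlap, with 2-month replicate 4 the highest at 53.7.

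How the members varied together was described over the 25 libraries, which share lanes, depth differences and the age trend. The pair from chromosome 9, mir-34b and mir-34c, had a Pearson r of 0.73 for log2(CPM + 0.5), and 0.75 once the mean of each age was removed. The part of any shared reads in these values was not tested. The pair from the Cdc20b intron, mir-449a and mir-449c, had an r of 0.41, and -0.02 with age means removed. mir-449c had 7 to 35 reads per library. Counting error alone gives it a coefficient of variation of 18.9% to 25.6% at the 5 ages, against observed values of 9.58% to 33.8%. The part of counting error in the r of mir-449a and mir-449c was not tested. Between loci, mir-34c and mir-449a had an r of 0.49, and 0.17 with age means removed. The order depended on the measure. By rank (Spearman) the correlation was 0.60 for mir-34c and mir-449a, 0.53 for mir-34b and mir-34c and 0.42 for mir-449a and mir-449c. mir-34a had an r of 0.14 with mir-449a and 0.27 with mir-34c, and with age means removed these were -0.33 and -0.14.

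**Figure D5:**
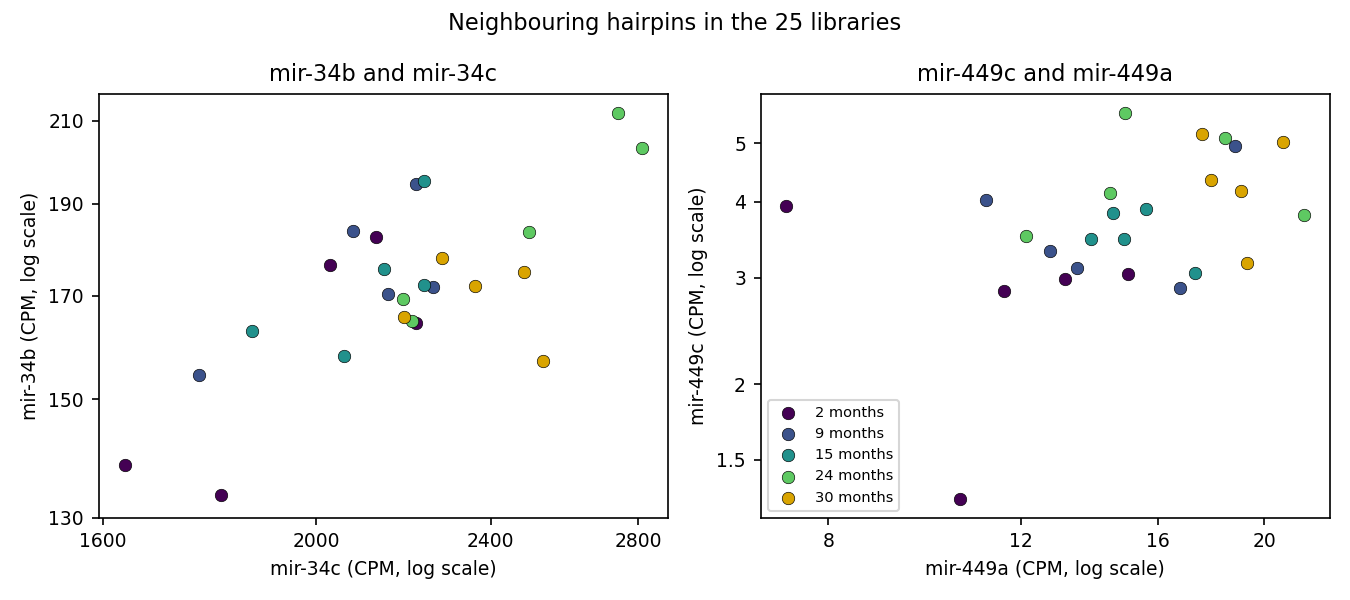
Levels of neighbouring hairpins against each other in the 25 libraries, in CPM on log scales, coloured by age. mir-34b and mir-34c scatter along a common line (r = 0.73), and mir-449c and mir-449a do so less (r = 0.41), with 2-month replicate 1 lowest for mir-449c at 1.296 CPM.

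Outside the family, likeness was ranked by Pearson r over the 25 libraries among the 321 precursors that averaged 10 CPM or more. Closest to mir-449a were mir-146a, induced by NF-κB (r = 0.73), mir-93 of the miR-106b cluster (0.71) and mir-146b (0.69). With age means removed these were 0.51, 0.36 and 0.48. All 3 rose between 2 and 30 months, with log2 fold changes of 0.99, 0.35 and 0.48 (edgeR adjusted p = 3.90e-06, 3.18e-05 and 0.00934). mir-146a was also closest to mir-34c (r = 0.67, and 0.38 with age means removed), ahead of mir-3074-1 (0.66 and 0.65) and mir-185 (0.65 and 0.48).

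mir-3074-1 was closest to mir-34b as well (r = 0.67), followed by mir-700 and mir-664 (0.62 each). The mean level of mir-3074-1 was nearly that of mir-24-1, with which it may share reads. It may therefore not be a separate measurement. Whether its likeness to mir-34b and mir-34c rests on reads of mir-24-1 was not tested. Closest to mir-34a were mir-193a (0.69), mir-23b (0.68) and mir-29b-1 (0.68). mir-449c was closest to mir-874 (r = 0.85, and 0.81 with age means removed), mir-3084-2 (0.83 and 0.78) and mir-384 (0.82 and 0.72). The values for mir-449c rested in part on 2-month replicate 1, without which r before removal of age means was 0.73, 0.70 and 0.62. Those for mir-34b fell too without that library, to 0.53 for mir-3074-1, 0.47 for mir-700 and 0.50 for mir-664. For comparison, the median r of the 321 precursors with mir-449c was 0.04.

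The levels of other lists were set beside the family. Over all 425 tested precursors, 19.1% were called higher and 17.9% lower at 30 than at 2 months. Their median log2 fold change was 0.05. The choroid plexus list holds mir-204, mir-211 and 5 hairpins in introns of Htr2c, a serotonin receptor gene expressed in that tissue. Of its 7 members, all tested, none rose and 1 fell, with a median log2 fold change of -0.11. mir-204, the most abundant, averaged 6939 ± 524 CPM at 30 months and 6240 ± 398 CPM at 2 months (SD, n = 5 each; 0.15 ± 0.08, SE, edgeR adjusted p = 0.159), and its slope on age passed at 0.08 per 12 months (adjusted p = 0.0436). mir-448, of Htr2c, fell to 43.5 ± 2.99 CPM at 30 months, against 58.7 ± 4.76 CPM at 2 months (-0.43 ± 0.12, adjusted p = 0.00770). In bulk tissue the cells behind this fall cannot be told. The list summed to 7764 to 8991 CPM at 30 months and 6794 to 8276 CPM at 2 months, and no member was at 0 in every library. Over the 25 libraries, which share lanes and the age trend, this sum had an r of 0.51 with mir-34c, 0.35 with mir-34a and 0.12 with mir-449a. Its part in the levels of the miR-34 and miR-449 hairpins was not tested.

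The counts of the next lists also stand beside the 19.1% of all tested precursors called higher and the 17.9% called lower. The 8 hairpins of the miR-200 clusters (epithelia) and the miR-183 cluster (sensory cells) differed widely between animals. Their sum ran from 1170.4 to 8702 CPM at 30 months and from 367 to 7006 CPM at 2 months, and none of the 8 was called (0 in edgeR, adjusted p from 0.563 to 0.952), with a median log2 fold change of 0.57. The r of this sum with mir-449a was 0.19 and with mir-34c -0.28. Of 7 p53-linked hairpins outside the family, none rose and 2 fell, with a median of -0.04. The falls were mir-194-1 (-0.28 ± 0.10, SE, adjusted p = 0.0318) and mir-194-2 (-0.30 ± 0.09, adjusted p = 0.0143), which can share reads because their mature 5p sequence is the same. mir-143, the most abundant of that list, lay at -0.00 ± 0.05 (adjusted p = 0.952). None of 3 erythroid hairpins was called, with a median of 0.51. mir-486a, the most abundant, lay at 0.18 ± 0.26 (SE, edgeR adjusted p = 0.610), mir-451a at 0.51 ± 0.34 (adjusted p = 0.256) and mir-144 at 0.79 ± 0.36 (adjusted p = 0.0828). Their sum was 1451 to 3034 CPM at 30 months and 1205 to 1976 CPM at 2 months. Of the 8 neuronal hairpins none rose, and mir-128-1 (-0.37 ± 0.09, SE) and mir-128-2 (-0.35 ± 0.09) fell (edgeR adjusted p = 0.00301 each), with a list median of 0.09. The near-equal copies of miR-124 and of miR-9 can share reads, and the 2 of miR-128 may too. The list, and the 2 falls in it, may therefore not be separate measurements. The sum of that list had an r of -0.71 with mir-34a and -0.03 with mir-449a over the 25 libraries. Of 3 hairpins of other organs, 2 were tested and none was called, with mir-133b, the most abundant, at -0.11 ± 0.21 (adjusted p = 0.688). Their part in the results was not tested.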

How the data were processed

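Whole-number counts per miRNA precursor, with both arms together, were deposited by the authors for 25 libraries. Tools named in the submitters' processing notes are SAMtools 1.3.1-9, Trimmomatic 0.36 and bcl2fastq 1.8.4. Aligner, build, use of strand and treatment of multiple matches: not given in the sources used here. Per the labels' protocols, the TruSeq small RNA kit was used. No molecular identifiers are mentioned.

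Titles carry a different animal number per library, so libraries were taken as separate animals, and ages came from the labels. edgeR 4.0.16 (R 4.3.3) was run with filterByExpr, TMM (factors 0.952 to 1.04) and quasi-likelihood fits of all libraries, with a mean per age or a linear slope. Alternatives included DESeq2 1.42.0 and limma 3.58.1. SE was the log2 fold change divided by the square root of F. Ratios used 0.5 added to each count. Fits were tested on simulated data. Figures used matplotlib 3.10.9 under Python 3.11.15.

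Named precursors were the members, the 3 most alike per member (mean of at least 10 CPM) and, of each marker list, those called and the most abundant. mir-24-1 was named for its level near that of mir-3074-1. The members and lists were chosen with earlier results of these data known.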

Additional observations from a re-analysis of the deposited data

Results flagged for a closer look

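In 45 sets of 5 libraries (each member at each age, and each ratio at 2 and 30 months), a library was marked where its gap to the nearest one exceeded 0.710 of the range (Dixon's 95% value), which chance does in about 1 of 20 sets. The same library, 2-month replicate 4, was marked for 2 ratios. Its log2 ratio of mir-449a to mir-34b was -4.62, against -3.74 to -3.45 in the other 2-month libraries. Its log2 ratio of mir-449a to mir-34c was -8.17, against -7.41 to -7.13. It held 41 reads of mir-449a, the fewest of the 25 libraries.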

How the results depend on the processing

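Between 2 and 30 months, mir-449a kept its call in all settings tried, and mir-34a (0.11 to 0.21) and mir-34b (0.01 to 0.13) stayed uncalled. The log2 fold change of mir-449c lost its call with upper-quartile scaling (0.54), no filter (0.61), DESeq2 (0.57), without lane 3 (0.51), with only the 2 ages (0.58) and with 2-month replicates 3 to 5 alone (0.38). For mir-34c this happened with upper-quartile scaling (0.21) and with 2-month replicates 3 to 5 (0.27). Leaving out 1 library at a time gave 0.20 to 0.29 for mir-34c, 0.38 to 0.75 for mir-449c, 0.10 to 0.23 for mir-34a and -0.0081 to 0.13 for mir-34b. Slopes ran from 0.18 to 0.28 for mir-449c, 0.054 to 0.10 for mir-34a and 0.013 to 0.055 for mir-34b. Ratio differences ran from 0.44 to 0.74 for mir-449a over mir-34b, 0.29 to 0.54 over mir-34c and 0.36 to 0.71 over mir-34a. They ran from -0.0079 to 0.18 for mir-34c over mir-34a and from -0.30 to 0.22 for mir-449c over mir-449a. Without lane 3 the first 2 were 0.67 and 0.44, no longer past the threshold. Uncalled adjacent-age values that changed sign were those of 15 against 9 months for mir-34c (upper quartile, -0.012), mir-449c (lane as covariate, 0.034) and mir-34b (without lane 3, 0.038), and of 30 against 24 months for mir-449c (without lane 3, 0.023). The causes were not tested. The stricter filter left mir-449c out. No paired analysis was possible because the animal numbers are not shared between ages. Precision is limited for mir-449c by its 7 to 35 reads.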
